A study of Mus musculus with 2 samples.

Results

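Keratin 14-high CT26 tumour cells were the barcodes with the highest share of Krt14 transcripts among the malignant cells of 2 mouse tumour libraries. A barcode entered the tumour gate with at least 3000 unique molecular identifiers (UMIs, each standing for 1 captured transcript), at most 15% mitochondrial UMIs, at least 3 UMIs and 200 CPM (counts scaled to a total of 1000000) of Hmga2, 0 UMIs of Ptprc and at most 3 of Lyz2. Hmga2 encodes a chromatin protein that the CT26 line expresses, Ptprc encodes the leukocyte antigen CD45, and Lyz2 encodes the lysozyme of myeloid cells. Of 32516 barcodes in all, 11652 passed, and the top 5% of these by Krt14 UMIs per 10000 UMIs, ranked over both libraries together, were the 583 Krt14-high barcodes. They were set beside the 4001 gated barcodes with 0 Krt14 UMIs, called Krt14-zero here.

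CT26 is a colorectal carcinoma line of BALB/c mice. Cells were grown under the skin of wild-type BALB/c mice aged 5 weeks, and dosing began at a tumour volume of about 100 mm3. The vehicle library came from tumour of mice given vehicle, and the WQ-2101 library from mice given 20 mg/kg of WQ-2101 into the abdominal cavity daily, with tumours taken on day 17 after implantation. The series concerns blocking of PHGDH, the enzyme of the entry step of serine synthesis, and WQ-2101 is its compound. Tumour pieces were dissociated with enzymes and loaded whole, with no sort, as droplet libraries that read the 3′ end of transcripts. Both carry the same batch label. With 1 library per treatment there is no replicate, so no test was run, and every interval below is 95% and covers counting error only. Treatment cannot be told apart from any other difference between the libraries, and no source used here gives the number of mice behind each.

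Keratins are the intermediate filament proteins of epithelia, built as pairs of a type I and a type II chain. Keratin 14 is the type I chain of the basal layer of stratified epithelia such as skin, where its partner is the type II chain keratin 5. Keratins 16 and 17 are type I relatives known for induction in wounded or activated skin, while simple epithelia such as the colon use keratins 8 and 18 with 19 or 20.

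Krt14, Krt16 and Krt17 lie near each other on mouse chromosome 11 (GRCm38, minus strand). A stretch near the end of their coding sequence is much alike in all 3. It was picked for its likeness to Krt16 and Krt17 together, from within the last 500 bases of the Krt14 transcript. Over the whole coding sequence, identity to Krt14 was 83.2% for Krt16 and 75.0% for Krt17. The stretch is shown because the libraries read the 3′ end of transcripts, so a read from it can be hard to assign to 1 gene. The sequences come from the GENCODE M21 transcripts, lie in exon 6 of each gene, and are printed 5′ to 3′ on the coding strand, with capitals marking bases of Krt16 and Krt17 that differ from Krt14.
Krt14 (chr11:100204112-100204201): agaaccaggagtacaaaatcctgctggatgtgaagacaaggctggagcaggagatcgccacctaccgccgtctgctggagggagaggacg
Krt16 (chr11:100246614-100246703): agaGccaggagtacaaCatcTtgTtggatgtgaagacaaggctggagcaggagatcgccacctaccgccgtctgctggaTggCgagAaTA
Krt17 (chr11:100257437-100257526): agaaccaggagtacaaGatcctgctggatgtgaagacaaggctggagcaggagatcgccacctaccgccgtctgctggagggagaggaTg
Krt16 differed from Krt14 at 9 of these 90 bases and Krt17 at 2. The longest run of bases that the last 500 bases of the Krt14 transcript share with Krt16 was 55, and with Krt17 it was 71. Krt17 had 0 UMIs in the WQ-2101 Krt14-high barcodes, where Krt14 had 766 CPM. How reads from this stretch were assigned among the 3 genes was not tested. How many Krt16 UMIs came from Krt14 transcripts was not tested, and the Krt16 values below are uncertain to that extent.

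Krt14-high barcodes were a larger part of the tumour cells in the WQ-2101 library. They made up 94 of 5080 gated barcodes in vehicle, 1.85% (1.498 to 2.26, Clopper-Pearson), and 489 of 6572 in WQ-2101, 7.44% (6.82 to 8.10). The ratio of these shares was 4.02 (3.22 to 5.07). Krt14-zero barcodes were 47.4% (46.0 to 48.8) of the gate in vehicle and 24.2% (23.2 to 25.3) in WQ-2101. The whole distribution was shifted, not the top alone: summed over the gate, Krt14 stood at 89.3 CPM (87.4 to 91.3) in vehicle and 198 (195 to 201) in WQ-2101.

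The WQ-2101 share was the higher one at equal depth as well. After each gated barcode was thinned to 3000 UMIs, 18.9% (17.9 to 20.0) of vehicle and 38.5% (37.3 to 39.6) of WQ-2101 barcodes still had a Krt14 UMI, against 52.6% and 75.8% before thinning. With 2 or more Krt14 UMIs of 3000, the shares were 4.59% (4.03 to 5.20) and 13.8% (13.0 to 14.7). Krt14 UMIs in barcodes of other cells also differed between the libraries. Whether these came from RNA set free in the droplets was not tested. In leukocyte barcodes (at least 2 Ptprc and 10 Lyz2 UMIs, 0 Hmga2), which should lack Krt14, 4.28% in vehicle and 9.49% in WQ-2101 had a Krt14 UMI, at 5.04 CPM (4.07 to 6.18) and 14.99 CPM (12.8 to 17.4). Median depth was 8290.5 and 7048.5 UMIs in those leukocytes, 14375 and 12949 in Krt14-high barcodes, and 14272 and 10895 in Krt14-zero barcodes.

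**Figure D1:**
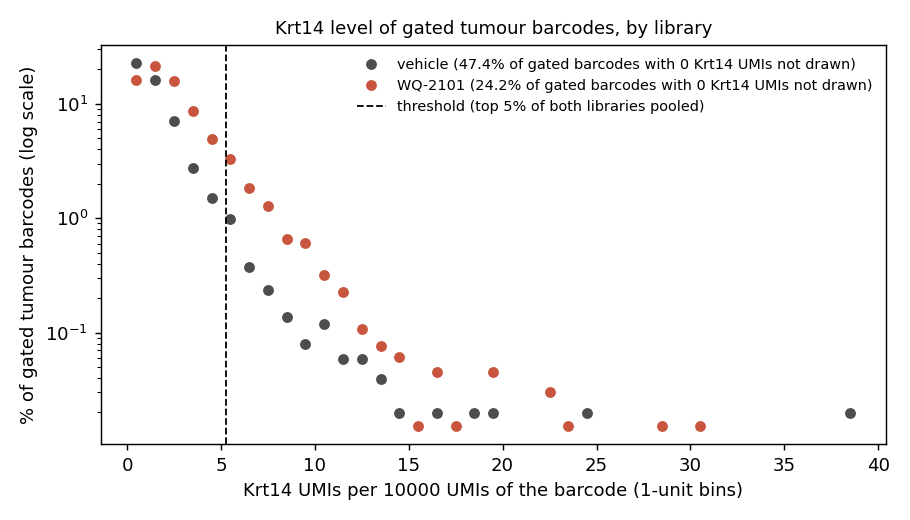
Share of gated tumour barcodes (log axis) in each 1-unit bin of Krt14 UMIs per 10000 UMIs, for the vehicle and WQ-2101 libraries; bins with no barcode have no point, and the dashed line is the threshold of 5.29. The WQ-2101 points lie above the vehicle points in every bin from 1 to 15, and the levels fall off smoothly through the threshold in both.

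The threshold cuts a continuous range of Krt14 levels. The lowest Krt14-high barcode had 5.290 Krt14 UMIs per 10000 and the highest barcode left out had 5.284, and 334 gated barcodes lay within 10% of the threshold of 5.29. The same threshold was used for both libraries, so it sets how low Krt14 can be among the members of each. The lowest, median and highest values were 5.29, 6.797 and 38.7 per 10000 in vehicle, and 5.29, 6.85 and 30.4 in WQ-2101. These rest on 2 to 46 and on 2 to 55 Krt14 UMIs per barcode. Scrublet, run on each library, called 0 of the 94 and 4 of the 489 as doublets. The libraries shared 73 cell barcodes in all and 7 within the gate, and no barcode was Krt14-high in both.

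A single vehicle barcode stood apart from all other members and is named before the results that it touches. It held 46 Krt14, 50 Krt17, 15 Krt5 and 19 Sfn UMIs with 9 Hmga2 UMIs, of 11879 in total, and it was the only member in either library with a UMI of Krt5, the only one with Krt17 and the only one with Trp63, the transcription factor of basal epithelia. Every Krt5 UMI of the gate, 15 in number, came from it. Without it the members were 93 in vehicle, the ratio of shares was 4.07, and 48 genes in place of 49 were at least 1.5-fold higher in both libraries.

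Outside that barcode, no UMI of Krt5 was found in the members. Krt5, the type II chain it pairs with in skin, was at 0 UMIs in all 489 WQ-2101 members, which allows a level of up to 0.453 CPM and up to 0.613% of barcodes with a Krt5 UMI. This limit is on barcodes with a UMI at this depth, not on cells that express the gene at a low level. Krt17 was at 0 there too. Krt8 and Krt18, the pair of simple epithelia, were at 0 in the members of both libraries. Krt7 and Krt19 had 1 UMI each in WQ-2101 members and 0 in vehicle members. Of 26 type I keratins in the files, 18 had no UMI in any member.

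Krt16 was higher in Krt14-high than in Krt14-zero barcodes in both libraries. It stood at 12.6 CPM (7.44 to 19.9) in Krt14-high against 2.35 in Krt14-zero barcodes in vehicle, and at 34.7 CPM (30.4 to 39.5) against 6.89 in WQ-2101, so both members' values lay above both zero values. The ratios were 5.35 (3.03 to 8.95) and 5.04 (4.04 to 6.31). A Krt16 UMI was found in 13.8% of vehicle and 22.7% of WQ-2101 members, against 2.37% and 5.59% of Krt14-zero barcodes, and in WQ-2101 1 barcode held 15.2% of the members' Krt16 UMIs. Krt80, a type II keratin, was 6.98 against 2.13 CPM in vehicle and 13.6 against 5.43 in WQ-2101. The Krt80 ratios were 3.27 (1.51 to 6.34) and 2.51 (1.86 to 3.36), with 10 Krt80 UMIs in vehicle members. Leukocytes had 13.1 and 9.87 CPM of Krt80, and a Krt80 UMI was found in 10.1% and 6.73% of them. Those levels lay above the Krt14-zero barcodes of the same library, so they do not serve as a floor for tumour barcodes. The source of Krt80 UMIs in leukocytes was not tested. Krt10, the type I chain of suprabasal skin, did not follow Krt14: it was 14.7 and 13.2 CPM in vehicle and 15.9 and 15.1 in WQ-2101.

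**Figure D2:**
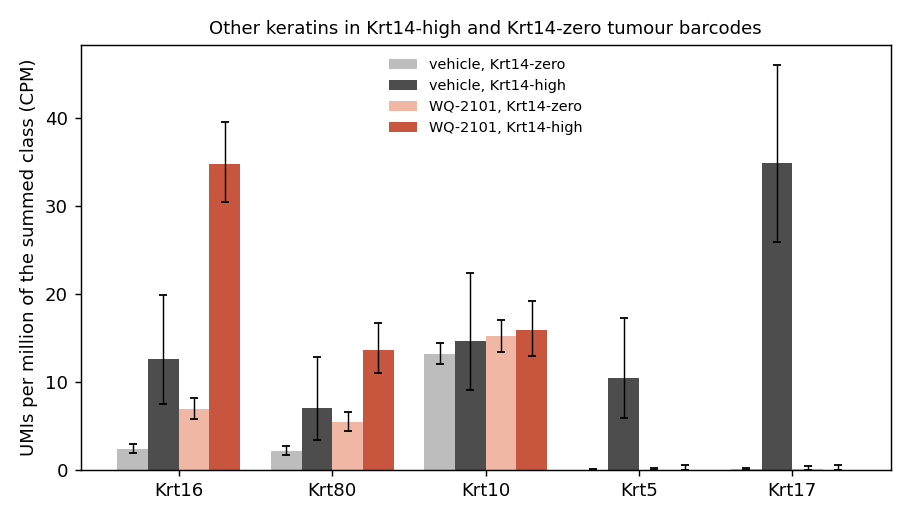
CPM of 5 keratins other than Krt14 in the summed Krt14-high and Krt14-zero barcodes of each library; bars start at 0 and the lines are 95% Poisson intervals. Krt16 and Krt80 are higher in Krt14-high than in Krt14-zero barcodes in both libraries, Krt10 is level, and the vehicle bars of Krt5 and Krt17 come from 1 barcode.

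Genes were then compared between the summed Krt14-high and Krt14-zero barcodes of each library, as log2 of the ratio of CPM with 5 CPM added to both. A gene was tested where the mean of the 2 sums was at least 5 CPM and counted as different past 1.5-fold. The members were chosen on Krt14 in the same cells, so these values describe the Krt14-high state, and no test stands behind them. In vehicle, 295 genes were higher (2.94% of the 10027 tested) and 308 lower (3.07%). In WQ-2101, 72 were higher (0.719% of 10008) and 121 lower (1.21%). The vehicle sum rests on 1433087 UMIs and the WQ-2101 sum on 6621678, so the vehicle values carry the larger counting error. With all sums thinned to the smallest, 954 genes passed in vehicle and 818 in WQ-2101.

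The genes that passed in both libraries are the better described set. They numbered 49 higher (0.501% of 9790 tested in both) and 65 lower (0.664%), while 1 passed in opposite directions (0.0102%). They were 64.0% of the 178 genes past 1.5-fold in WQ-2101 and 20.2% of the 565 in vehicle, and 169 of those 178 had the same sign in vehicle. When every barcode was thinned to 3000 UMIs before the members were chosen, so that 2 Krt14 UMIs made a member, 7 were higher and 4 lower in both. That setting redefined both classes, and its sums still used all UMIs. Members became 233 in vehicle and 908 in WQ-2101. Krt14-zero barcodes became 4118 and 4045, because barcodes that lost their Krt14 UMIs in thinning were counted there.

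Slurp1 stood furthest from the rest. It encodes a secreted protein of the Ly6 family, known from the skin and from its binding to acetylcholine receptors, and lies at chr15:74724318-74728034. It had 76.1 CPM (62.5 to 91.8) in vehicle members against 4.86 in Krt14-zero barcodes, and 147 CPM (138 to 157) against 17.4 in WQ-2101, ratios of 15.6 (12.2 to 20.0) and 8.48 (7.47 to 9.65). Each members' value lay far above both zero values. A Slurp1 UMI was present in 34 of 94 vehicle and 248 of 489 WQ-2101 members, 36.2% and 50.7%, against 5.77% and 13.2% of Krt14-zero barcodes and 0.381% and 2.22% of leukocytes. At 3000 UMIs per barcode the members' shares were 17.0% and 26.6%, against 1.62% and 4.59% in Krt14-zero barcodes. Slurp1 was uneven among the members: in vehicle, 9 barcodes held 56.0% of its UMIs, and 1 barcode held 20.2%.

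The Slurp1 relatives Ly6a and Ly6c1, surface proteins anchored by a lipid, were also higher. Ly6a, a marker known from stem and progenitor cells, had 625 and 411 CPM in Krt14-high and Krt14-zero barcodes of vehicle, and 715 and 437 in WQ-2101. Ly6c1 had 281 and 165, then 326 and 208. Of the Ly6 and Slurp list, 3 of 4 genes tested in vehicle and 3 of 5 in WQ-2101 were past 1.5-fold higher and none lower. Of all genes tested, 2.94% were higher in vehicle and 0.719% in WQ-2101. The list medians were 0.68 and 0.64 on the log2 scale, beside -0.01 and -0.02 over all genes tested, and of the others tested Ly6e had log2 differences of -0.30 and -0.06, and Lynx1, tested in WQ-2101 alone, 0.30.

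Several secreted and surface proteins were among the higher genes. Nppb, the natriuretic peptide BNP, had 165 CPM (145 to 188) in vehicle members against 37.0 in Krt14-zero barcodes, and 125 (116 to 133) against 42.5 in WQ-2101. Anxa8, a calcium-dependent membrane-binding annexin, had 100.5 (84.7 to 118) against 21.6 and 76.6 (70.0 to 83.5) against 25.4. Msln, the surface protein mesothelin, had 51.6 (40.5 to 64.8) against 18.8 and 32.9 (28.7 to 37.6) against 9.66. For Nppb, Anxa8 and Msln the members of either library lay above the Krt14-zero barcodes of both. Between 1.58% and 9.46% of the members' UMIs of these genes came from any 1 barcode. Tinagl1, a matricellular protein of basement membranes, was 2.199 (1.82 to 2.64) and 2.51 (2.19 to 2.88) times as high in Krt14-high as in Krt14-zero barcodes.

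Small cytoplasmic proteins made up another part of the higher genes. Crip1, a LIM-domain protein, was the most abundant, with 1950 CPM (1878 to 2023) against 796 in vehicle and 1704 (1672 to 1735) against 751 in WQ-2101. Its relative Crip2 had 426 against 206 and 385 against 207 CPM. Cryab, the small heat shock protein alpha B-crystallin, had 174 against 54.9 and 220 against 107 CPM, with 16.4% of its UMIs in vehicle members from 1 barcode. Phlda3, a p53-induced inhibitor of AKT, had 207 against 108 and 234 against 124. It was the only member of the arrest and p53 target list past 1.5-fold in WQ-2101, where 16 were tested. In vehicle, Cdkn1a, Ccng1 and Fas passed with it, 4 of 15. The share of all genes tested that were higher was 0.719% in WQ-2101 and 2.94% in vehicle.

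The cellular retinoic acid binding proteins went opposite ways. Crabp2, which carries retinoic acid to its nuclear receptor, had 145 CPM (126 to 166) against 51.2 in vehicle and 139 (130 to 148) against 58.9 in WQ-2101. Crabp1, which holds retinoic acid in the cytoplasm, had 39.8 (30.1 to 51.5) against 216 and 57.1 (51.5 to 63.1) against 152. The Crabp1 ratios were 0.184 (0.139 to 0.239) and 0.376 (0.337 to 0.419). Krt14-zero barcodes held more Crabp1 than Crabp2 in both libraries and Krt14-high barcodes more Crabp2 than Crabp1, on the CPM scale of a 3′ count that does not depend on transcript length.

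The remaining higher genes named by rule were of several kinds. Rap1gap2, which switches off the small GTPase Rap1, was 3.47 (2.33 to 5.00) and 2.52 (2.12 to 3.00) times as high in members. Ifitm1, an interferon-induced membrane protein, was 1.86 (1.63 to 2.12) and 1.99 (1.86 to 2.12) times as high. Plod1, a collagen lysyl hydroxylase, was 1.70 (1.40 to 2.04) and 1.72 (1.55 to 1.90) times as high, and Gm2694, a gene named only by its number, 2.11 (1.62 to 2.69) and 1.70 (1.52 to 1.89). Slc7a2, a transporter of arginine and lysine, was 37.7 against 14.3 CPM in vehicle, but 59.3% of the members' UMIs there came from 1 barcode. With only the top 2% as members its vehicle log2 difference was -1.14, and in WQ-2101 it was 98.2 against 58.4 CPM.

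**Figure D3:**
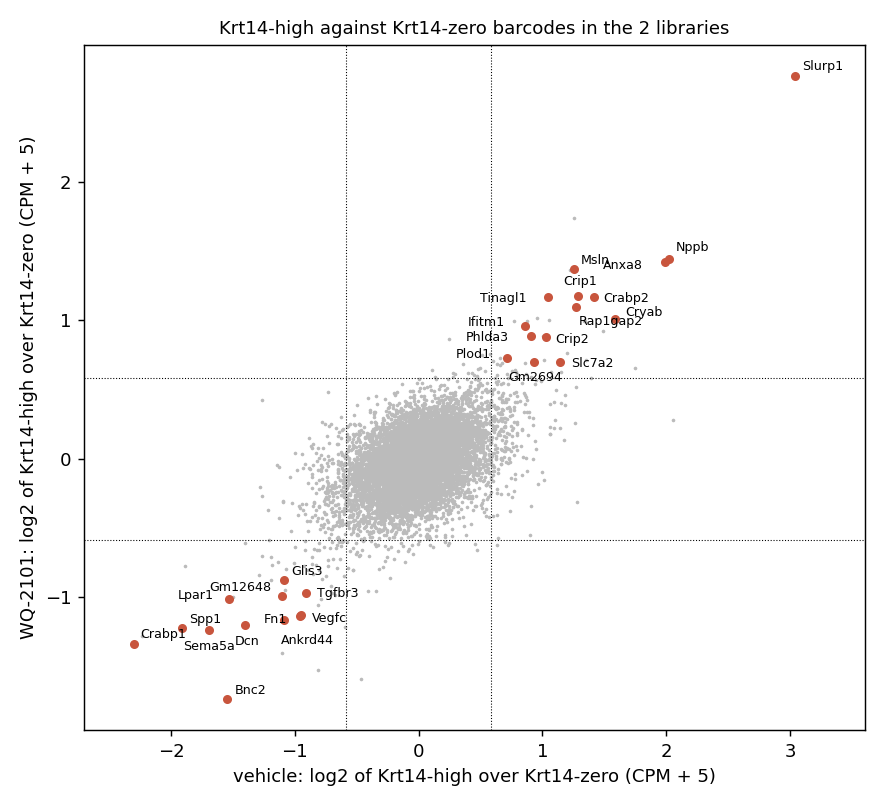
Each point is a gene tested in both libraries other than Krt14, placed by its log2 ratio of Krt14-high over Krt14-zero CPM (5 CPM added) in vehicle (x axis) and WQ-2101 (y axis); dotted lines mark 1.5-fold and the named genes are coloured. Slurp1 lies alone at the upper right at 3.04 and 2.77, and of the coloured genes Crabp1 and Bnc2 lie furthest to the lower left.

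At a mean of 20 CPM or more, the genes that were lower in Krt14-high barcodes were led by Bnc2, Crabp1 and Sema5a. Secreted proteins such as Spp1, Dcn and Fn1 were among them. Bnc2, the zinc finger factor basonuclin 2, had 9.77 CPM (5.34 to 16.4) against 38.0 in vehicle and 6.64 (4.83 to 8.92) against 33.7 in WQ-2101. Spp1, the secreted phosphoprotein osteopontin, had 221 (198 to 247) against 846 and 273 (261 to 286) against 644. Dcn, the collagen-binding proteoglycan decorin, had 197 (175 to 222) against 529 and 169 (159 to 179) against 393. Fn1, fibronectin, had 178 (157 to 201) against 351 and 127 (119 to 136) against 284. For Bnc2, Spp1, Dcn and Fn1 the members of both libraries lay below the Krt14-zero barcodes of both. Leukocytes held far more Spp1 (3409 CPM in vehicle and 2235 in WQ-2101) and Fn1 (2260 and 1305) than any of the tumour sums. They held less Dcn (18.4 and 14.2) and Bnc2 (2.60 and 0.987).

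Signalling receptors and guidance molecules were also among the lower genes. Sema5a, a semaphorin, had 20.2 against 76.7 CPM in vehicle and 20.5 against 55.1 in WQ-2101. Lpar1, a receptor for lysophosphatidic acid, had 13.96 against 49.8 and 16.9 against 39.2. Tgfbr3, the co-receptor betaglycan of TGF-beta ligands, had 41.9 against 83.0 and 43.9 against 90.9. Glis3, a zinc finger factor, had 11.2 against 29.2 and 17.4 against 36.1. Vegfc, the growth factor of lymphatic vessels, had 11.2 against 26.3 and 15.4 against 39.5, with 8 of its 16 UMIs in vehicle members from 1 barcode. Ankrd44, a regulatory subunit of a protein phosphatase, was 0.445 (0.343 to 0.569) and 0.428 (0.386 to 0.474) times the Krt14-zero level. Gm12648, named only by its number, was 0.444 (0.351 to 0.553) and 0.445 (0.366 to 0.538) times that level.

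Differences from the barcodes with 0 Krt14 were already present in the bins of Krt14 level just below the threshold. The gated barcodes of each library were divided into 7 bins of Krt14 level, with edges chosen after the values were seen. Slurp1 was 4.86, 5.52, 12.2, 23.3 and 35.1 CPM over the 5 vehicle bins from 0 to the threshold, then 46.9 in members up to 8 per 10000 and 139 in those above. In WQ-2101 it was 17.4, 17.4, 33.2, 41.8, 78.0, 119 and 220 CPM. Crip1 was higher in each bin than in the one before in both libraries. Crabp1 passed from 216 CPM at 0 to 93.8 just below the threshold and 36.7 in members up to 8 in vehicle, and from 152 to 87.4 and 58.7 in WQ-2101. The steps did not all go 1 way. In the top vehicle bin several lower genes were above the bin before it: Crabp1 had 46.3 CPM after 36.7, Dcn 263 after 167, Fn1 192 after 171 and Sema5a 22.1 after 19.4. Nppb in WQ-2101 had 127 CPM in members up to 8 and 119 in those above. Across the threshold in vehicle Krt16 went from 11.6 to 9.18 CPM and Crabp2 from 141 to 136, and Bnc2 went from 17.6 to 19.3 in the bin just below it. The top vehicle bin holds 31 barcodes and the next 63.

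**Figure D4:**
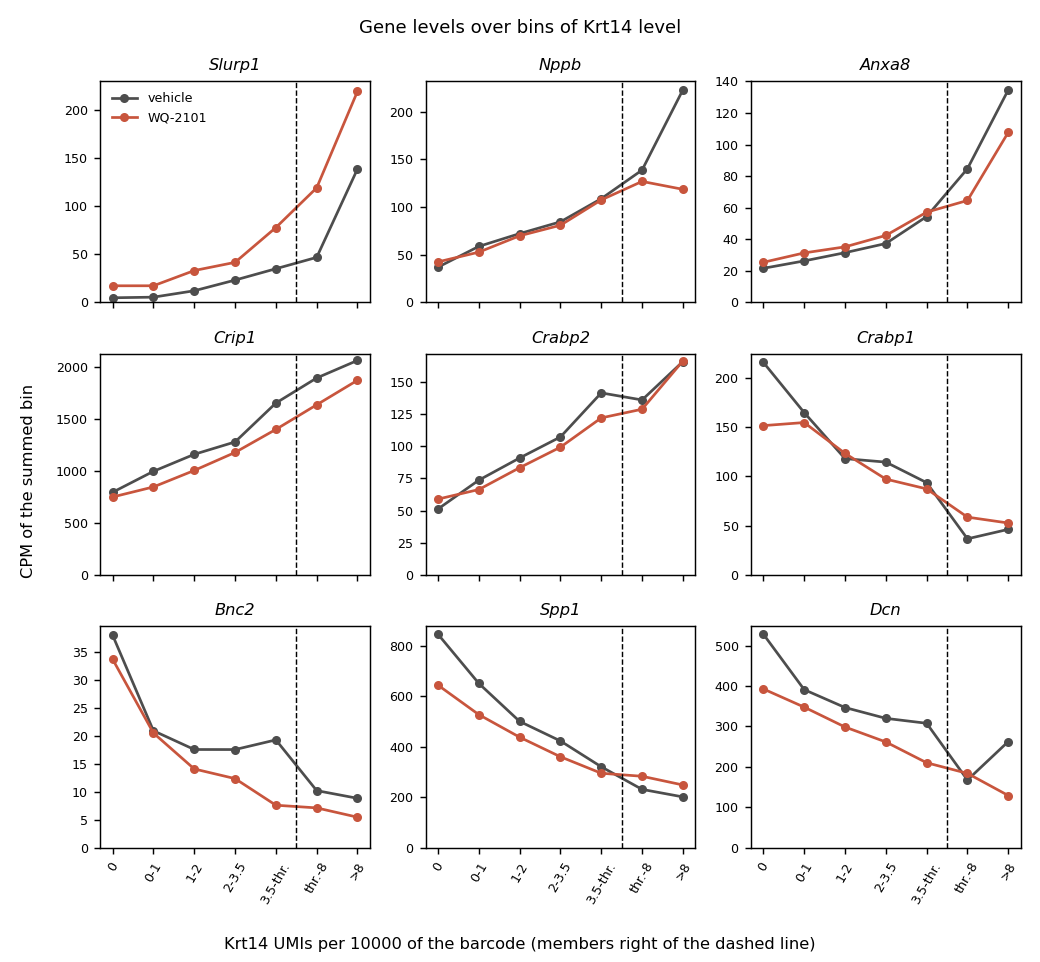
CPM of 9 genes in the summed gated barcodes of 7 bins of Krt14 level (UMIs per 10000, thr. is the threshold), for vehicle (grey) and WQ-2101 (red); barcodes right of the dashed line are members. Slurp1, Nppb, Anxa8, Crip1 and Crabp2 are higher and Crabp1, Bnc2, Spp1 and Dcn lower in the bins above the threshold than in the bin at 0.

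Few epidermal and no intestinal genes reached the level needed for testing. Of 18 basal keratinocyte markers, 4 could be tested in WQ-2101 and none passed 1.5-fold, and in vehicle Krt5 alone passed of 5, through the barcode described above. With 0.719% and 2.94% of all genes higher in these comparisons, and so few genes tested, nothing is read from these counts. Of 21 markers of differentiated keratinocytes, 2 of 3 tested passed in WQ-2101: Sbsn, the secreted suprabasin, with 14.9 against 8.03 CPM, and Klk10, a secreted protease, with 7.55 against 3.36. In vehicle Sbsn and Klk10 passed with Lgals7 and Sfn, 4 of 5, and the list medians were 0.92 in vehicle and 0.59 in WQ-2101. The barcode with Krt5 held 19 of the 25 Sfn UMIs of vehicle members, and 14 of the 19 Lgals7 UMIs came from 1 barcode. Jup, the junction protein plakoglobin, was the only one of 5 tested junction and polarity genes past 1.5-fold, in both libraries, with 16.1 against 8.56 and 16.5 against 9.11 CPM. None of the 20 intestinal epithelial genes reached the level needed for testing. Among mesenchymal genes, 1 of 20 was higher (Fbn1, fibrillin) and 3 lower (Fn1, the collagen chain Col1a1 and the matrix protein Tnc) in both libraries, with Col5a2 lower in vehicle too. Of all genes tested, 3.07% were lower in vehicle and 1.21% in WQ-2101, and 0.501% were higher and 0.664% lower in both. The medians of this list were 0.02 in vehicle and -0.15 in WQ-2101. Vim, the intermediate filament of mesenchymal cells, was abundant in every class, with log2 differences of 0.14 and 0.10.

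Proliferation genes gave no gene past 1.5-fold between the classes. None of 21 S phase genes and none of 20 G2 and M phase genes passed 1.5-fold in either library. The S phase medians were -0.19 in vehicle and 0.17 in WQ-2101, and the G2 and M medians -0.14 and 0.12. Serine and one-carbon genes gave no gene past 1.5-fold of 17 in either library. Over all genes, 2.94% were higher and 3.07% lower in vehicle, and 0.719% and 1.21% in WQ-2101, so 0 of about 20 genes is near the background. Phgdh itself was 272 CPM (246 to 301) in vehicle members against 290 in Krt14-zero barcodes, and 282 (269 to 295) against 243 in WQ-2101.

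In early response and type I interferon genes the libraries gave different counts. Of all genes tested, 2.94% were higher and 3.07% lower in vehicle members, and 0.719% and 1.21% in WQ-2101 members. Of 20 AP-1 and immediate early genes, Fos, Jund, Atf3, Klf2 and Dusp1 were past 1.5-fold higher and Fosl2 lower in vehicle members, with a median of 0.35, and none passed in WQ-2101, with a median of -0.02. Of type I interferon response genes, 6 of 13 were higher in vehicle members (Isg15, Ifit1, Oasl2, Rsad2, Usp18 and Rtp4), with a median of 0.49, and 0 of 12 in WQ-2101, with a median of -0.08. Ifit1 had 24.4 against 7.16 CPM in vehicle and 8.61 against 11.9 in WQ-2101. These differences between the libraries were not tested.

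Markers of other cell types were read in the same sums. The 10 macrophage markers summed to 163 and 155 CPM in Krt14-high and Krt14-zero barcodes of vehicle, and to 186 and 207 in WQ-2101. The 9 T cell markers summed to 7.68 and 5.81, then 9.82 and 10.6 CPM, and the 7 neutrophil markers to 7.68 and 12.3, then 12.1 and 24.0. The 9 fibroblast markers, led by Dcn, summed to 264 and 625 CPM in vehicle and to 225 and 471 in WQ-2101, so they were lower in Krt14-high barcodes in both. Endothelial and mural markers summed to 92.8 and 73.4, then 92.0 and 77.3, with Kdr and Rgs5 at 0 in the members. All macrophage, T cell, neutrophil and fibroblast markers had at least 1 UMI among the members. Hmga2, a gene of the gate, was 795 against 1293 CPM in vehicle and 1071 against 1327 in WQ-2101. The part of RNA from other cells in the lower Dcn, Spp1 and Fn1 was not tested.

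Within the Krt14-high barcodes, the WQ-2101 library differed from vehicle in genes of several kinds. Of 10040 genes tested, 247 were past 1.5-fold higher (2.46%) and 295 lower (2.94%). In Krt14-zero barcodes, whose sums are deeper, 117 of 9999 were higher (1.17%) and 43 lower (0.430%). Both pairs of sums come from the same 2 libraries. The Krt14-high comparison rests on 94 vehicle barcodes, and with all sums thinned to the smallest, 873 genes passed in Krt14-high and 788 in Krt14-zero barcodes.

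Slurp1 and Krt16 were higher in WQ-2101 than in vehicle members. Slurp1 was 1.94 (1.59 to 2.38) times as high in WQ-2101 as in vehicle members, with log2 differences of 0.91 in members and 1.18 in Krt14-zero barcodes. Krt16 was 2.77 (1.71 to 4.75) times as high, with log2 differences of 1.18 and 0.69. Krt14 was at 811 CPM (765 to 859) in vehicle and 766 (745 to 788) in WQ-2101 members. The threshold sets the lowest Krt14 level that a member of either library can have. Nppb, Anxa8, Msln and Crip1 had lower CPM in WQ-2101 than in vehicle members, with ratios between 0.638 and 0.874 and upper bounds between 0.842 and 0.923.

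Higher genes in WQ-2101 members included several that were higher in Krt14-zero barcodes as well. Slc7a2 had 98.2 CPM in WQ-2101 and 37.7 in vehicle members, and 58.4 and 14.3 in Krt14-zero barcodes. Pdk1, a kinase that inhibits pyruvate dehydrogenase in mitochondria, had 45.8 and 18.1 in members and 48.6 and 21.6 in Krt14-zero barcodes. Ero1l, the oxidase of disulfide formation in the endoplasmic reticulum, had 95.7 and 42.6, then 154 and 79.2. Hsph1, a chaperone of the Hsp110 family, had 189 and 88.6, then 262 and 123. Prelid2, a lipid transfer protein by its family, was 2.15 (1.55 to 3.06) times as high in WQ-2101 members. For all 5 the Krt14-zero barcodes also passed 1.5-fold.

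Other genes that passed 1.5-fold in members did not pass it in Krt14-zero barcodes. Efna5, a membrane-bound ephrin ligand, had 82.3 CPM (75.5 to 89.5) in WQ-2101 and 35.6 (26.5 to 46.8) in vehicle members, against 68.3 and 63.4 in Krt14-zero barcodes. Its log2 difference was 1.11 in members and 0.10 in Krt14-zero barcodes, and the vehicle members were the low value of the 4. Grhpr, a reductase of glyoxylate and hydroxypyruvate, was 2.62 (1.60 to 4.59) times as high in WQ-2101 members, Sema6a, a semaphorin, 2.51 (1.61 to 4.14) times and Crybg3 2.52 (1.56 to 4.34) times. Their log2 differences in Krt14-zero barcodes were 0.30, 0.47 and 0.14. Fbxo5, an inhibitor of the anaphase-promoting complex, was 2.55 (1.51 to 4.66) times as high in members, with -0.01 in Krt14-zero barcodes. Suv39h1, a histone methyltransferase, and Gpn1, a GTPase of RNA polymerase II import, had differences of 0.86 and 0.78 in members. In Krt14-zero barcodes these were -0.18 and -0.19. Vehicle members held 15 UMIs of Fbxo5, 17 of Grhpr, 17 of Suv39h1, 18 of Gpn1, 18 of Crybg3 and 21 of Sema6a. Across the alternative settings the lowest differences in members were -0.43 for Grhpr, -0.017 for Suv39h1 and 0.064 for Gpn1. They were 0.15 for Sema6a, 0.21 for Crybg3, 0.23 for Fbxo5 and 0.63 for Efna5.

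Among genes at a mean of 20 CPM or more, the differences in the other direction were led by Lsmem1, Nfatc2, Fosb and Fos. Fos, the AP-1 subunit, had 917 CPM (868 to 968) in vehicle and 342 (328 to 356) in WQ-2101 members, against 543 and 415 in Krt14-zero barcodes. Fosb, its relative, had 364 (334 to 397) and 132 (124 to 141), against 271 and 185. The vehicle members were the highest of the 4 sums and the WQ-2101 members the lowest for both genes. Nfatc2, a calcium-dependent transcription factor, had 90.02 and 28.7, against 74.1 and 38.5. Id3, an inhibitor of helix-loop-helix factors and a BMP target, had 62.1 and 20.5, against 61.9 and 33.6. Lsmem1, a small membrane protein, had 43.3 and 8.46, against 28.4 and 12.5, with the largest log2 difference in members at that level, -1.84. Below that mean, Krt17 had a log2 difference of -2.996, with all of its vehicle UMIs in members from the barcode described above.

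The other lower genes were of several kinds. Serpinf1, the secreted serpin PEDF, was 0.365 (0.282 to 0.475) times the vehicle level in WQ-2101 members, Tmem267 0.296 (0.204 to 0.431) times and Gm12648 0.341 (0.256 to 0.457) times. The histone genes Hist1h2bc and Hist1h2ac were 0.434 (0.396 to 0.476) and 0.355 (0.244 to 0.521) times that level, and had log2 differences of -0.27 and -0.26 in Krt14-zero barcodes. Tnfaip6, a secreted hyaluronan-binding protein, had 20.5 against 51.6 CPM in members and 35.3 against 36.0 in Krt14-zero barcodes. Neat1, the long non-coding RNA of nuclear paraspeckles, had 435 (419 to 451) against 816 (770 to 864) in members and 565 against 487 in Krt14-zero barcodes. Crabp1 went the other way in members, with 57.1 against 39.8 CPM, and had 152 against 216 in Krt14-zero barcodes. Its log2 difference in members, 0.47, did not pass 1.5-fold and kept its sign in 11 of 15 alternative settings.

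The list counts by treatment in the 2 classes are given side by side, and the difference between the classes was not tested. Of all genes tested, 2.46% were higher and 2.94% lower in members, and 1.17% and 0.430% in Krt14-zero barcodes. Of 20 AP-1 and immediate early genes, 9 were past 1.5-fold lower and 0 higher in WQ-2101 members: Fos, Fosb, Junb, Egr2, Ier2, Atf3, Klf2, Zfp36 and Btg2. The median was -0.53, beside -0.02 over all genes tested. In Krt14-zero barcodes Btg2 alone passed and the median was -0.09. Klf2, a factor of quiescence, had 1518 CPM in vehicle and 846 in WQ-2101 members, against 788 and 774 in Krt14-zero barcodes. Across the alternative settings the list's median in members stayed between -0.63 and -0.25, and in Krt14-zero barcodes between -0.19 and -0.05. The counts moved more. With barcodes thinned to 3000 UMIs before the choice, 4 genes were lower in members and 3 in Krt14-zero barcodes. Another setting left out barcodes that hold leukocyte RNA, here a UMI of Lyz2, C1qa, C1qb or Cd74, which leaves 7 vehicle members. There 4 genes were higher and 5 lower in members, and 5 were lower in Krt14-zero barcodes.

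Hypoxia genes were higher in WQ-2101 in both classes, 6 of 16 past 1.5-fold in members with a median of 0.41, and 9 of 16 in Krt14-zero barcodes with 0.66. The 6 were Ankrd37, Pdk1, Bnip3, Egln3, Ero1l and Higd1a. The shares of all genes tested were 2.46% higher and 2.94% lower in members, and 1.17% and 0.430% in Krt14-zero barcodes. Glycolysis genes had medians of 0.44 and 0.42, with 4 of 15 past 1.5-fold in members (Hk1, Pfkl, Pgk1 and Slc16a3) and 1 of 15 in Krt14-zero barcodes. Interferon gamma response genes had 4 of 17 past 1.5-fold higher in members (Cxcl9, Igtp, Cd274 and Tap1), with a median of 0.42, and 13 of 17 in Krt14-zero barcodes, with 0.74. Without barcodes that hold leukocyte RNA the median in members was -0.36, with 7 vehicle and 41 WQ-2101 members left. Cd74, a gene of this filter, is also in the MHC class II list and was higher in WQ-2101 members. How many tumour cells with Cd74 of their own the filter removed was not tested. Type I interferon response genes had 4 of 14 lower in members (Ifit1, Oasl2, Rsad2 and Usp18) with a median of -0.14, and 1 of 12 higher in Krt14-zero barcodes with 0.39. MHC class II genes had 3 of 6 higher in members and 4 of 6 in Krt14-zero barcodes, with medians of 0.61 and 1.00. Serine and one-carbon genes had medians of 0.14 and 0.02, with Slc1a4 alone past 1.5-fold in members. Macrophage marker sums, 163 and 186 CPM in the members of vehicle and WQ-2101 and 155 and 207 in Krt14-zero barcodes, moved with the MHC class II genes, and their part in that result was not tested.

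**Figure D5:**
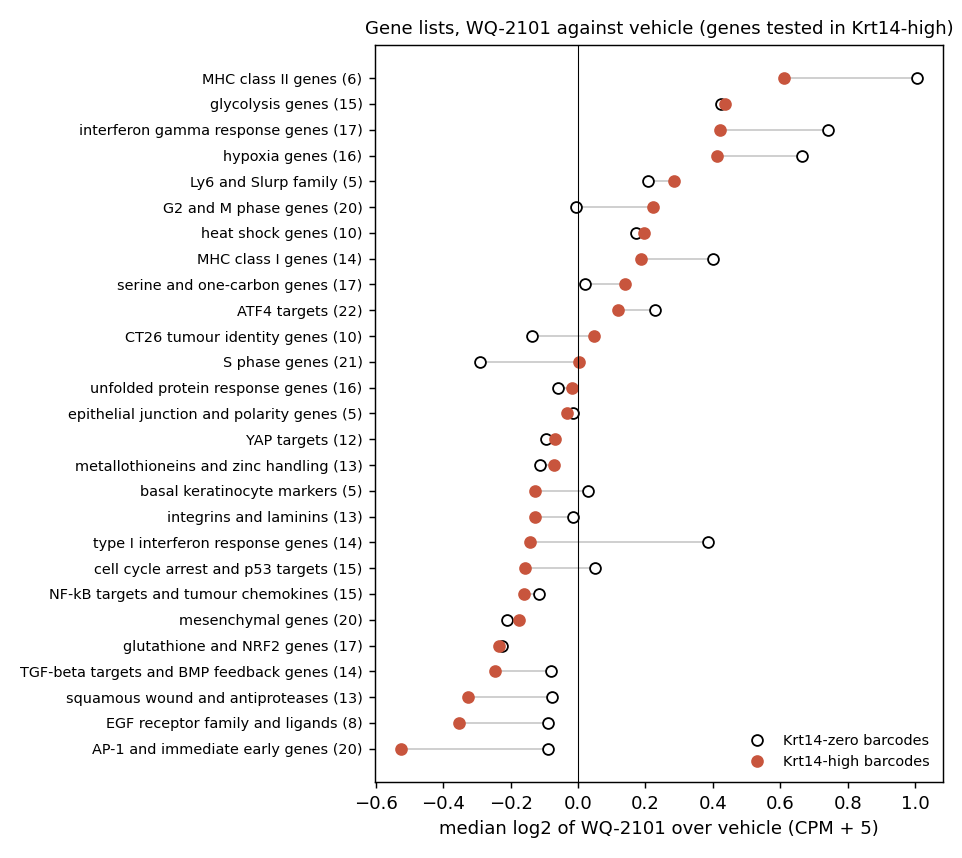
Median log2 ratio of WQ-2101 over vehicle CPM (5 CPM added) for each gene list with at least 4 genes tested, in Krt14-high (red) and Krt14-zero (open) barcodes, with the number of genes tested in Krt14-high barcodes in brackets. AP-1 and immediate early genes lie lowest at -0.53 in Krt14-high barcodes, and MHC class II genes highest at 0.61.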

How the data were processed

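The deposited files hold raw UMI counts per gene and barcode, which the authors made from 10x Chromium 3′ reads. Per the file headers Cell Ranger 7.2.0 wrote them, while the submitters' processing notes name Cell Ranger 2.2.2 and GRCm38; which was used to count cannot be settled from these. The libraries held 184754398 and 185587327 UMIs in 14374 vehicle and 18142 WQ-2101 barcodes, with no barcode under 500 UMIs. From the counts, the gate was applied with numpy 2.4.6 and scipy 1.17.1 (Python 3.11.15), and counts were summed over Krt14-high and Krt14-zero barcodes of each library and scaled to CPM. Intervals are exact Poisson for CPM, Clopper-Pearson for shares and conditional binomial for ratios. A count of 0 is given with the limit that 3 counts allow. UMIs of 1 cell are not independent and 1 library per group gives no replicate error, so no p-value was computed. Doublets were called with Scrublet (scanpy 1.11.5) and kept, except in an alternative. The comparison was tested on simulated sums. Coordinates and sequences come from GENCODE M21 (GRCm38), whose entries matched 32158 of 32285 gene identifiers.

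Genes were named by rule: the 15 higher and 12 lower in Krt14-high barcodes by the smaller of the libraries' differences, and the 10 higher and 10 lower by treatment in members, each at a mean of 20 CPM or more. The rule added the 5 at either end of the difference in treatment between classes, keratins at 5 CPM or more, and genes of the gate or the drug's target. The members and the 31 gene lists and 7 marker lists were chosen with earlier results of these data known. Of 613 list symbols, 606 were in the files.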

Additional observations from a re-analysis of the deposited data

Results flagged for a closer look

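Ccl5, a chemokine of T cells and macrophages, was the only named gene past 1.5-fold in opposite directions by treatment in the 2 classes. Its log2 difference of WQ-2101 over vehicle was -0.91 in Krt14-high and 0.85 in Krt14-zero barcodes, and the difference between these was not tested. Krt14-high barcodes of vehicle held Ccl5 at 56.5 CPM and those of WQ-2101 at 27.6 CPM. In vehicle 1 barcode held 59 of the 81 Ccl5 UMIs and in WQ-2101 1 barcode held 78 of 183. A Ccl5 UMI was present in 12.8% of vehicle and 13.7% of WQ-2101 members.

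Barcodes outside the tumour gate also passed the Krt14 threshold at 3000 UMIs or more and at most 15% mitochondrial UMIs. There were 46 in vehicle and 391 in WQ-2101, and none had a UMI of Krt5. Too little Hmga2 kept out 27 and 271 of them, and 14 and 112 had a UMI of Ptprc. A Slurp1 UMI was present in 14 and 166. Their median depth was 13730.5 UMIs in vehicle and 5633 in WQ-2101.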

How the results depend on the processing

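No paired analysis was possible because each treatment has 1 library and the labels carry no replicate numbers. The main counts past 1.5-fold were 603 genes for Krt14-high against Krt14-zero in vehicle, 193 in WQ-2101, 542 for treatment in Krt14-high and 160 in Krt14-zero barcodes, with 49 higher and 65 lower in both libraries. In that order, a top 2% gave 1773, 375 and 1772, with 76 higher in both, and a top 10% gave 254 in vehicle and 216 for treatment in members. Thinning barcodes before the choice, which enlarged both classes, gave 71, 22 and 183, with 7 higher and 4 lower in both. The share ratio was then 3.01 in place of 4.02. Leaving out barcodes with leukocyte RNA kept 7 vehicle and 41 WQ-2101 members and gave 5143, 2212, 5287 and 597, with 220 higher and 469 lower in both. A pseudocount of 1 gave 1072, 388, 1057 and 300, with 86 higher in both. A filter of 20 CPM gave 307, 108, 225 and 84, with 25 higher and 40 lower in both. Members taken within each library gave 275 for treatment. Sums thinned to the smallest, an alternative chosen after seeing the data, gave 954, 818, 873 and 788.

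Over all alternatives, 1445 of 1471 values of named genes past 1.5-fold kept their sign and 1370 stayed past 1.5-fold. Part of these counts was fixed in advance. A change of the filter alone leaves every value as it was, and a pseudocount of 1 cannot change a sign. A top 2% or 10%, or members taken within each library, leaves the treatment ratios in Krt14-zero barcodes unchanged. Most changes of sign came without barcodes with leukocyte RNA. There Gm2694 (-2.15), Slc7a2 (-2.11), Bnc2 (0.14), Gm12648 (0.88) and Krt16 (-0.35) turned for Krt14-high against Krt14-zero in vehicle, and Grhpr (-0.43), Ccl5 (2.02), Neat1 (0.66) and Krt80 (-0.43) for treatment in members. With a top 2%, Slc7a2 was -1.14 in vehicle and Ccl5 1.14 by treatment, with barcodes thinned first Ccl5 was 0.83, and with a top 10% Suv39h1 was -0.017. Krt17 in vehicle was -0.0099 without keratinocyte RNA and -0.0078 without the barcode with Krt5, an alternative also chosen after seeing the data. With sums thinned, Tmem267 in Krt14-zero barcodes was 0.0017. The Ly6 and Slurp median in vehicle was -0.012 with no filter on low values. The cause of these changes was not tested. The 94 vehicle members limit every value that uses them.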

Other observations

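Beyond the genes named by rule, the 49 genes higher and 65 lower in both libraries held other secreted factors and receptors, picked here after their values were seen. Edn2, the peptide endothelin 2, had 10.5 CPM in vehicle members against 1.08 in Krt14-zero barcodes, and 8.76 against 1.90 in WQ-2101. Timp3, an inhibitor of metalloproteinases, had 313 against 146 and 364 against 234. Phlda2, a relative of Phlda3, had 10.5 against 1.65 and 13.6 against 2.22, and Tead4, the partner of YAP, 35.6 against 20.4 and 40.2 against 22.9. Among lower genes, Ghr, the growth hormone receptor, had 158 against 281 and 142 against 418, Bmp2 9.07 against 25.2 and 5.74 against 23.3, and Lef1, the factor of Wnt signalling, 4.19 against 28.9 and 8.91 against 18.7. The Bmp2 and Lef1 values in vehicle members rest on 13 and 6 UMIs, and 33.3% of the Edn2 UMIs there came from 1 barcode.

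Other genes of retinoid metabolism were read beside Crabp1 and Crabp2, also after their values were seen. Cyp26b1, which breaks down retinoic acid, had 21.6 against 5.45 CPM in vehicle and 21.4 against 11.1 in WQ-2101. Adh7, an alcohol dehydrogenase that acts on retinol, had 29.3 against 14.9 and 28.1 against 16.4. The receptor Rarg had 89.3 against 72.2 and 71.7 against 68.8, which did not pass 1.5-fold in either library.

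Igkc, the immunoglobulin kappa constant gene of B cells, was named because its treatment difference was far larger in Krt14-zero than in Krt14-high barcodes. In WQ-2101 Krt14-zero barcodes it had 124 CPM, but 1 barcode held 1238 of the 2292 UMIs, and the shares of barcodes with an Igkc UMI were 13.1% there and 15.95% in WQ-2101 members. Mt1, a metallothionein, had 2247 CPM in vehicle and 3917 in WQ-2101 members, against 1730 and 3954 in Krt14-zero barcodes.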
